A study of Homo sapiens with 8 samples.

Results

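Gene expression in THP-1 cells was compared with that in HL-60 cells after both had received diclofenac. The comparison rests on 4 of the series' 8 arrays, the 2 titled as THP-1 and the 2 titled as HL-60 under diclofenac, and on all probe sets of the deposited table except the array's own controls. HL-60 and THP-1 are established human acute myeloid leukemia lines, which the labels describe as promyelocytic and monocytic. Cells of both groups were grown in RPMI-1640 with fetal bovine serum and given 100 µM diclofenac for 48 h, and RNA was hybridised to Affymetrix arrays. The other 4 arrays hold the same lines with DMSO, the solvent, for the same time. Each group has 2 arrays titled as biological replicates. The labels do not say how the cultures were separated, so the p-values measure the spread between these arrays, which may be technical. Each group is labelled as a single cell line, so a difference between groups is a difference between the 2 lines as labelled. The identity of the lines was not tested.

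Diclofenac blocks the cyclooxygenases PTGS1 and PTGS2, which make prostaglandins, and the series title links its effect in leukemia cells to apoptosis, differentiation and the AP-1 transcription factors. Promyelocytes make the primary granules of neutrophils and fill them with the proteases ELANE, PRTN3, CTSG and AZU1 and with the peroxidase MPO. Monocytes carry surface receptors such as CD14 and CSF1R and can present peptides to helper T cells on MHC class II molecules. THP-1 is known for a fusion of KMT2A with MLLT3, a kind of rearrangement that maintains HOXA genes, MEIS1 and MEF2C. HL-60 is known for many copies of MYC.

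The deposited values are linear intensities in arbitrary units, and the values of single arrays below are as deposited. Differences are THP-1 minus HL-60 in log2 units after quantile normalisation of log2(intensity + 50), with the moderated standard error (SE) of limma and an adjusted p over all probe sets. Folds are the same differences taken out of the logarithm. Where a line is dim, the added 50 makes them smaller than the ratios of the deposited intensities. A call is an adjusted p below 0.05. Of 22215 probe sets, 2630 were higher and 2650 lower in THP-1, which is 23.8% called, and 7616 had an unadjusted p below 0.05. Among 11963 genes, each read from its brightest probe set, 1716 (14.3%) were higher and 1707 (14.3%) lower, or 28.6% called. The difference was at least 1 log2 unit for 719 of the higher and 721 of the lower genes, and at least 3 units for 93 and 34. Of the 8919 genes above background on both arrays of at least 1 line, 37.7% were called, 18.9% higher and 18.8% lower, and the counts of list members below are to be read against these shares. Fits without 1 array leave its line with a single array and 1 residual degree of freedom, so the spread comes from the other line and the lone array is assumed to vary like it. Without THP-1 replicate 1 the counts fell to 1015 higher and 1078 lower genes, and without THP-1 replicate 2 to 1018 and 1101. Background was the level exceeded by 5% of 27 bacterial control probe sets, 42.32 to 49.96 on these 4 arrays. The correlation across probe sets was 0.983 between the HL-60 replicates, 0.985 between the THP-1 replicates and 0.922 to 0.924 between arrays of different lines. With 2 arrays a line, precision is limited by their number.

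The marker genes did not sort these arrays in the way the labels name the lines. MPO, the peroxidase that defines the promyelocyte, was near background on the HL-60 arrays at 61.2 and 57.8 and higher on the THP-1 arrays at 203.9 and 170.6. The difference was 1.08 ± 0.23 log2 units (SE, n = 2 arrays per line; adjusted p = 0.0226), and the call was lost when any 1 of the 4 arrays was left out. The other probe set of MPO was higher in THP-1 too, at 9.5 and 9.4 in HL-60 against 80.6 and 88.1 (1.14, adjusted p = 0.00977). ELANE, the neutrophil elastase, was bright in both, with 11923.2 and 14845.1 in HL-60 against 13612.4 and 15058.1 in THP-1, and was not called (0.18 ± 0.06, adjusted p = 0.105). These arrays overlapped.

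Other granule proteins split by gene. PRTN3, proteinase 3, read 3439.9 and 3530.9 in HL-60 and 12583.2 and 12842.7 in THP-1 (1.90 ± 0.07, adjusted p = 7.36e-05). AZU1, azurocidin, was 7.44-fold higher in THP-1. CTSG, cathepsin G, was lower in THP-1, at 7769.1 and 8281.5 against 11412.3 and 13745.2 (-0.57 ± 0.06, adjusted p = 0.00218). CST7, an inhibitor of cathepsins that is stored in the same granules, had the widest difference of all genes above background in both lines, with 10020.4 and 12435.7 in HL-60 and 67.4 and 58.2 in THP-1. It was lower by 6.66 ± 0.08 log2 units, a 101-fold difference. Of the 15 measured primary granule genes, 7 were higher, 3 lower and 5 not called, with a median difference of 0.18 (0.06 with arrays centred on their median) against -0.005 over all genes. The count of higher members was 4 without HL-60 replicate 2, without THP-1 replicate 1 and without THP-1 replicate 2. In the secondary granule list of 19 genes, 3 were higher and 1 lower, among them ORM1, an acute-phase protein, at 32.9 and 7.6 against 1100.1 and 922.5, at least 11.03-fold higher in THP-1. The lower call, CAMP, was lost without HL-60 replicate 2 or either THP-1 array. For genes below background on both arrays of a line, a bound written as at least N-fold sets the bright line's mean against the background of the dim arrays.

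Monocyte genes also moved both ways. CD14, the receptor for bacterial lipopolysaccharide, was below background in HL-60 at 3.2 and 28.9 and read 332.9 and 310.5 in THP-1, at least 3.89-fold higher. S100A9 and its partner S100A8, calcium-binding proteins of neutrophils and monocytes, were higher as well. S100A9 went from 538.0 and 548.7 in HL-60 to 9626.6 and 10748.9 in THP-1 (4.12 ± 0.07, adjusted p = 1.23e-05). CCR2, the chemokine receptor of classical monocytes, was 9.60-fold higher in THP-1. In contrast GPNMB, a glycoprotein of macrophages, read 10076.8 and 11523.1 in HL-60 and 613.9 and 708.6 in THP-1 (-3.94 ± 0.09, adjusted p = 2.27e-05). The scavenger receptor CD36 was 9.87-fold and the lectin FCN1 5.74-fold lower in THP-1. CSF1R, the receptor for macrophage colony-stimulating factor, was not called at 138.0 and 116.2 against 255.7 and 221.6 (0.69 ± 0.20, adjusted p = 0.0573). This depended on the settings, as CSF1R was called higher in limma with no offset (0.89, adjusted p = 0.0372) or no intensity trend (adjusted p = 0.0312). Of 30 measured monocyte and macrophage markers, 9 were higher, 4 lower and 17 not called, with a median of 0.20 that became -0.00022 without HL-60 replicate 1. ANPEP, the surface peptidase CD13, was 2.07-fold lower in THP-1. The lines are named below as the arrays are labelled, and these markers do not settle which lineage either shows.

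Markers of other blood and tissue cells were mostly dim. Of 6 erythroid and 10 epithelial and fibroblast markers, 0 were called by limma, and 1 in each list had an unadjusted p below 0.05. Their summed intensities were 581 to 687 and 308 to 395 per array. KRT19, an epithelial keratin, read 1.9 to 2.9 on the 4 arrays, and ALAS2, the erythroid enzyme of heme synthesis, 3.6 to 4.7. The summed intensity of the 12 T and NK cell markers was 4476 and 4400 on the HL-60 arrays and 847 and 713 on the THP-1 arrays, with 2 of the 12 higher and 1 lower. The lower gene was NKG7, a membrane protein of cytotoxic granules, which read 4071.2 and 3994.8 in HL-60 and 227.8 and 242.9 in THP-1. NKG7 alone made up most of the HL-60 sums. The higher calls were lost without an HL-60 array, and CD3D, CD3E and CD3G, which define T cells, were not called. Of 6 megakaryocyte markers 1 was lower, PPBP, a platelet chemokine, at least 10.2-fold. It read 952.1 and 862.8 in HL-60, most of that list's summed intensity there, and 4.8 and 25 in THP-1. PF4 and ITGA2B of the same cell type were not called. Of 7 B cell markers 2 were lower in THP-1, BLNK and PAX5, the latter lost when any array was left out, and CD79A, CD79B and MS4A1 were not called. The summed intensity was 1225 and 1233 against 416 and 288 for the megakaryocyte list and 1264 and 1110 against 835 and 796 for the B cell list. The part of such genes in the other results was not tested.

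Many of the widest differences were in genes above background in one line and at background in the other. Of the 1716 genes called higher, 251 had both HL-60 arrays at background and both THP-1 arrays above it. Of the 1707 called lower, 134 had the reverse. These counts depend on the background cut, which differed between arrays. LAPTM4B, a lysosomal membrane protein, read 3.2 and 20.7 in HL-60 and 9404.1 and 9543.0 in THP-1, at least 100-fold higher. TKTL1, a relative of the pentose phosphate enzyme transketolase, read 7.2 and 9.8 against 6500.6 and 7299.5, at least 73.9-fold higher. HMGN3, a nucleosome-binding protein, was at least 99.5-fold, the carbonic anhydrase CA2 at least 57.0-fold and the cold-shock protein YBX3 at least 57.2-fold higher in THP-1. BEX3, NAV3 and SPARC, a matrix protein, followed with bounds of 33.4-fold, 29.3-fold and 26.7-fold. That the 2 lines did not overlap in these 8 genes follows from how they were picked. Of the other probe sets of YBX3, 1 was higher too and 1 was not called.

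In the other direction MMP1, the collagenase of interstitial matrix, read 4305.8 and 4353.7 in HL-60 and 25.7 and 6.1 in THP-1, at least 46.6-fold lower. TPSB2, a tryptase of mast cells, was at least 32.2-fold, the cytokine IL32 at least 25.1-fold, the myeloid lectin CLEC5A at least 20.7-fold and the hormone RETN at least 16.6-fold lower in THP-1. SEPTIN10 and the clock gene PER3 followed with bounds of 12.3-fold and 7.90-fold, and GALNT14 with one of 14.97-fold.

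Among genes above background on all 4 arrays, CD81, a tetraspanin of the cell surface, read 47.1 and 46.7 in HL-60 and 3576.2 and 3879.3 in THP-1 (5.26 ± 0.10, adjusted p = 1.42e-05). SDCBP, the adaptor syntenin, was 37.8-fold and the growth factor MDK 23.0-fold higher in THP-1. PDLIM1, ALCAM, GAL, APP and ALDH2 were 9.71-fold to 17.9-fold higher. CLEC2B, a lectin recognised by NK cells, read 9293.4 and 12387.9 in HL-60 and 75.5 and 67.6 in THP-1, an 88.5-fold difference. CCL2, the chemokine that draws monocytes, read 3986.7 and 4887.9 against 69.4 and 147.4, lower by 4.88 ± 0.26 in THP-1. BCL2A1, an inhibitor of apoptosis, was 23.9-fold lower, CYTH1 19.7-fold, NXF3 16.1-fold, and SORL1 13.4-fold. S100P was lower by 3.45. CD93, a receptor of myeloid cells, was lower by 3.88 on its brightest probe set, but its other probe set read 421.0 and 595.9 in HL-60 and 947.1 and 707.1 in THP-1 and was not called.

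**Figure D1:**
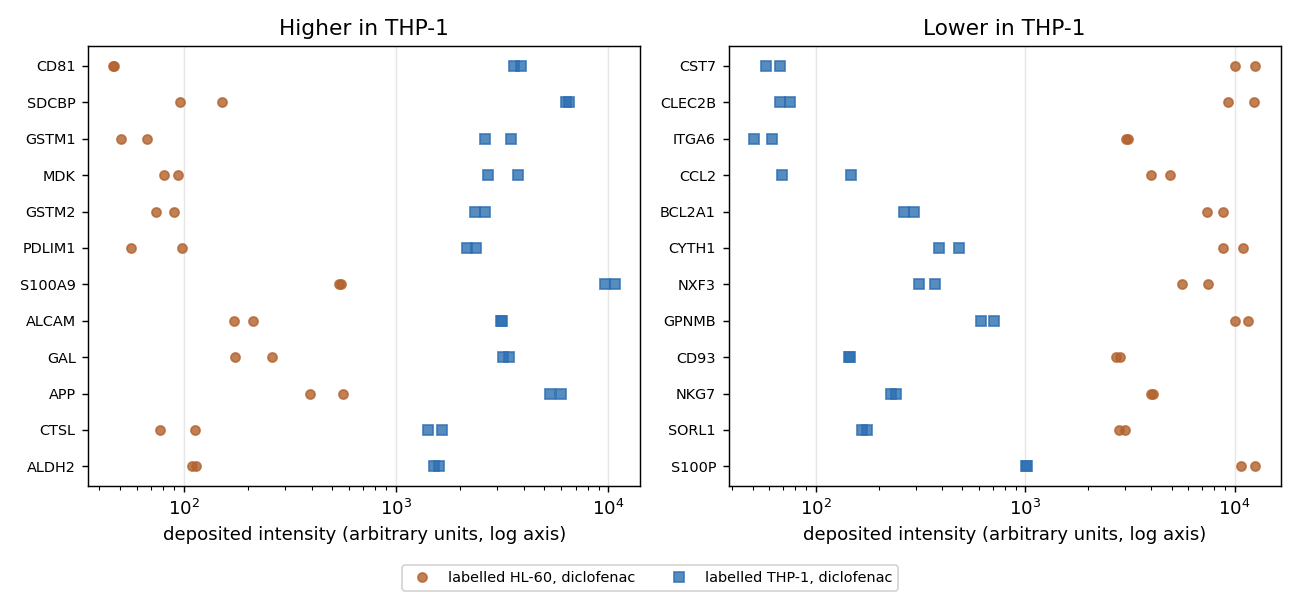
Deposited intensity on a log axis (arbitrary units) for the 12 genes per direction with the widest difference among called genes above background on all 4 arrays. Circles are the 2 HL-60 and squares the 2 THP-1 diclofenac arrays. The genes were picked by their difference on these arrays, so the gap between the lines follows from the choice.

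MHC class II genes were called in 1 direction. Class II molecules are pairs of an alpha and a beta chain, HLA-DR, HLA-DP or HLA-DQ, that assemble on the invariant chain CD74 and load peptide with the help of HLA-DM. Their promoters are known for an X box, bound by the RFX proteins RFX5, RFXANK and RFXAP, and a Y box, bound by NF-Y, and the co-activator CIITA acts on both. Of 17 measured genes of the class II list, 7 were higher in THP-1, 0 lower and 10 not called (median 0.36). That is 41.2% higher against 18.9% of all genes above background, although 14 of the 17 were above background in a line. The HLA genes of the list lie on chromosome 6, where 32.8% of genes were higher (given with the chromosomes). The count of higher genes was 4 without THP-1 replicate 1 or without THP-1 replicate 2, and 1 gene was lower without HL-60 replicate 1. The median was 0.82 with no offset added before the logarithm.

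The promoters below, 250 bases before to 50 after the annotated start, are from RefSeq on GRCh38.p14 and are shown because they hold both motifs while their genes differed in call. Capitals mark CTGATTGG, the core of the Y box, and a motif written for the X box, AG and AC with 2 bases between them, then 2 more bases and ATG. Both were searched on both strands, and the matches shown do not overlap. Of 12 measured class II and CD74 genes, 10 had a promoter in the table, 3 of these had both motifs, and 0.0712% of 35116 promoters of this length had both (3.97% the Y motif and 2.57% the X motif).
HLA-DRB1, chr6:32589799-32590098, minus strand: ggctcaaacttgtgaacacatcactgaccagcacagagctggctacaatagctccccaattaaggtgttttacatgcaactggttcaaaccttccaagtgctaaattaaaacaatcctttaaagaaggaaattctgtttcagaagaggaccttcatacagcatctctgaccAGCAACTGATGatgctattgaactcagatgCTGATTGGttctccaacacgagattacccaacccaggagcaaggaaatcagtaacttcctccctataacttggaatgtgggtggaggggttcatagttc
HLA-DQB1, chr6:32666608-32666907, minus strand: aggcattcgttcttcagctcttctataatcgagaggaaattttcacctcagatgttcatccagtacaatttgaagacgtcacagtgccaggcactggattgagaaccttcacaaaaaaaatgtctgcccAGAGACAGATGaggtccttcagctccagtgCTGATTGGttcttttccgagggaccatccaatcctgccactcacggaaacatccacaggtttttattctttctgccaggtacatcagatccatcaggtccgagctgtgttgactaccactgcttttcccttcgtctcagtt
HLA-DMA, chr6:32953048-32953347, minus strand: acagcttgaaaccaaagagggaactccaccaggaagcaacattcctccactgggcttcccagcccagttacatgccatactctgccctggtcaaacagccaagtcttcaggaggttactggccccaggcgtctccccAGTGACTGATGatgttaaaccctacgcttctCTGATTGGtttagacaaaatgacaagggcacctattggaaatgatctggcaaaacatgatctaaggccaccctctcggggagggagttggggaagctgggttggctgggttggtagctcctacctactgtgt
The start of the X motif lay 30 bases before that of the Y motif in HLA-DRB1 and HLA-DQB1 and 31 bases before it in HLA-DMA. Of the genes with this pair, HLA-DRB1 was higher in THP-1, and HLA-DQB1 and HLA-DMA were not called. HLA-DPA1, HLA-DPB1 and CD74 were higher and did not hold these letters in the windows read. A match describes the sequence and not binding.

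HLA-DRA, the alpha chain of HLA-DR, was below background in HL-60 at 4.5 and 5.6 and read 561.2 and 546.5 in THP-1, at least 6.28-fold higher. HLA-DRB1, the beta chain, read 294.7 and 267.3 against 1311.5 and 1363.6 (2.08 ± 0.10, adjusted p = 0.000133). Its probe set can bind the near-identical copies of the beta chain gene, so the reading is uncertain between them. CD74 read 144.1 and 158.1 in HL-60 and 1144.8 and 1362.9 in THP-1 (2.68 ± 0.14, adjusted p = 0.000172). HLA-DPA1 was 2.59-fold higher, at 77.3 and 57.3 against 264.3 and 248.5, and HLA-DPB1 read 46.7 and 4.1 against 193.9 and 223.9. CIITA read 77.1 and 65.5 in HL-60 and 75.6 and 56.2 in THP-1, close to background in both, and was not called (-0.13 ± 0.24, adjusted p = 0.772). RFX5 was higher by 0.54, and RFXANK and RFXAP were not called. HLA-DQA1, HLA-DQB1, HLA-DOA, HLA-DMA and HLA-DMB differed by 0.14 to 0.53 and were not called. HLA-DOB, a chain that restrains HLA-DM, read 56.9 and 113.7 in HL-60 and 28.1 and 6.3 in THP-1 and was not called either (-1.05, adjusted p = 0.0566).

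The class I list, which makes and loads peptides in every nucleated cell, had 8 higher, 0 lower and 9 uncalled genes of 17 (median 0.37). The count of higher genes was 5 without HL-60 replicate 1, without THP-1 replicate 1 or without THP-1 replicate 2. TAP2, a chain of the peptide pump of the endoplasmic reticulum, read 203.7 and 215.0 in HL-60 and 857.2 and 902.8 in THP-1 (1.84 ± 0.12, adjusted p = 0.000334). PSMB9, a subunit of the immunoproteasome, was 2.15-fold higher. TAP2 and PSMB9 also lie on chromosome 6, where 32.8% of genes were higher. ERAP1, which trims peptides, was higher by 2.48 on its brightest probe set, and another of its probe sets was called lower by 2.45, so its direction is uncertain. HLA-B, HLA-C and B2M, the light chain, were not called.

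Of the glutathione transferases of the mu class, which lie side by side on chromosome 1 and conjugate glutathione to electrophiles, GSTM1 to GSTM4 were higher in THP-1 and GSTM5 was not called. GSTM3 read 29.0 and 45.4 in HL-60 and 9460.7 and 10620.6 in THP-1 (6.84 ± 0.12, adjusted p = 1.4e-05). GSTM1 read 66.9 and 50.8 against 2629.0 and 3470.1, a 27.5-fold difference. GSTM2 was 18.8-fold higher in THP-1, and GSTM4 at least 4.63-fold. GSTM5 leaned the other way, at 148.8 and 146.9 against 99.7 and 79.1 (-0.56, adjusted p = 0.156). The probe sets of GSTM1 and GSTM2 can bind other members, so those readings are uncertain between copies. The promoters of GSTM1 and GSTM3 (RefSeq, GRCh38.p14) are shown because genes of 1 cluster that were both higher differ in CG content, with CG in capitals.
GSTM1, chr1:109687567-109687866, plus strand: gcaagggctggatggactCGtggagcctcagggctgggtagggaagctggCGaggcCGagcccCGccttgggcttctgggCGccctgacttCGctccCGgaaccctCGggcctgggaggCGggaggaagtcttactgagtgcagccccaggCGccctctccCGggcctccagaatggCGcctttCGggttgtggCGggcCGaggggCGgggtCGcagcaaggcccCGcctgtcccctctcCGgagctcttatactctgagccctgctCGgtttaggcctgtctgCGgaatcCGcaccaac
GSTM3, chr1:109740989-109741288, minus strand: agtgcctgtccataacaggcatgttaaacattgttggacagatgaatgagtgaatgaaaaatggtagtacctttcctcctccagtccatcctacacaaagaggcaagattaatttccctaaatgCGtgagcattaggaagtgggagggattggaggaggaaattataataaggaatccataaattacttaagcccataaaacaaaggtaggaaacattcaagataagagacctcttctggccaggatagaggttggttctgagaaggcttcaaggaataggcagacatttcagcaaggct
GSTM1 holds 22 CG pairs in this window and GSTM3 holds 1, against a median of 14 over all promoters, and GSTM2 and GSTM4 hold 17 and 21.

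MGST3, a membrane-bound transferase, read 6744.4 and 6896.8 in HL-60 and 1689.6 and 2212.0 in THP-1 (-1.79 ± 0.13, adjusted p = 0.000467). GSTO1 was lower by 1.00, MGST2 lower by 0.37, and GSTP1 and GSTT1 were not called. Among targets of NRF2, the regulator of oxidative stress genes, HMOX1, which opens the heme ring, was lower in THP-1 at 354.6 and 309.1 against 3917.4 and 3975.5 (-3.38 ± 0.08, adjusted p = 2.81e-05). ME1, malic enzyme, was at least 15.7-fold higher in THP-1, and GSR, glutathione reductase, 2.08-fold lower. NQO1 was higher by 0.49 and NFE2L2, the gene of NRF2, by 0.67, while GCLC, GCLM and TXNRD1 were not called. The list of 25 genes had 9 higher, 7 lower and 9 uncalled members, with a median of -0.02.

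Lysosomal genes were mostly lower in THP-1. Of 25 measured hydrolases and membrane proteins, 16 (64%) were lower, 4 higher and 5 not called, against 18.8% lower over all genes above background, and their median was -0.44. Leaving out any 1 array gave 11 to 14 lower members. CTSD, the aspartic protease cathepsin D, read 2490.1 and 2592.8 in HL-60 and 421.7 and 413.5 in THP-1 (-2.47 ± 0.07, adjusted p = 5.17e-05). ASAH1, acid ceramidase, read 6505.5 and 7180.1 against 1366.1 and 1114.7, and NPC1, which exports cholesterol, 1726.5 and 1818.8 against 293.3 and 351.3. These were 5.25-fold and 4.89-fold lower. CTSH, GLA, TPP1 and NPC2 were lower by 1.03 to 1.74 log2 units. CTSL, cathepsin L, went the other way, from 77.2 and 112.6 in HL-60 to 1638.4 and 1410.6 in THP-1 (3.43 ± 0.17, adjusted p = 0.000161), and PSAP, the saposin precursor, was 1.81-fold higher. Of the 16 lower members, 4 (CTSH, GLA, HEXA and IDS) lie on chromosomes 15 or X, where lower genes were common (given with the chromosomes).

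**Figure D2:**
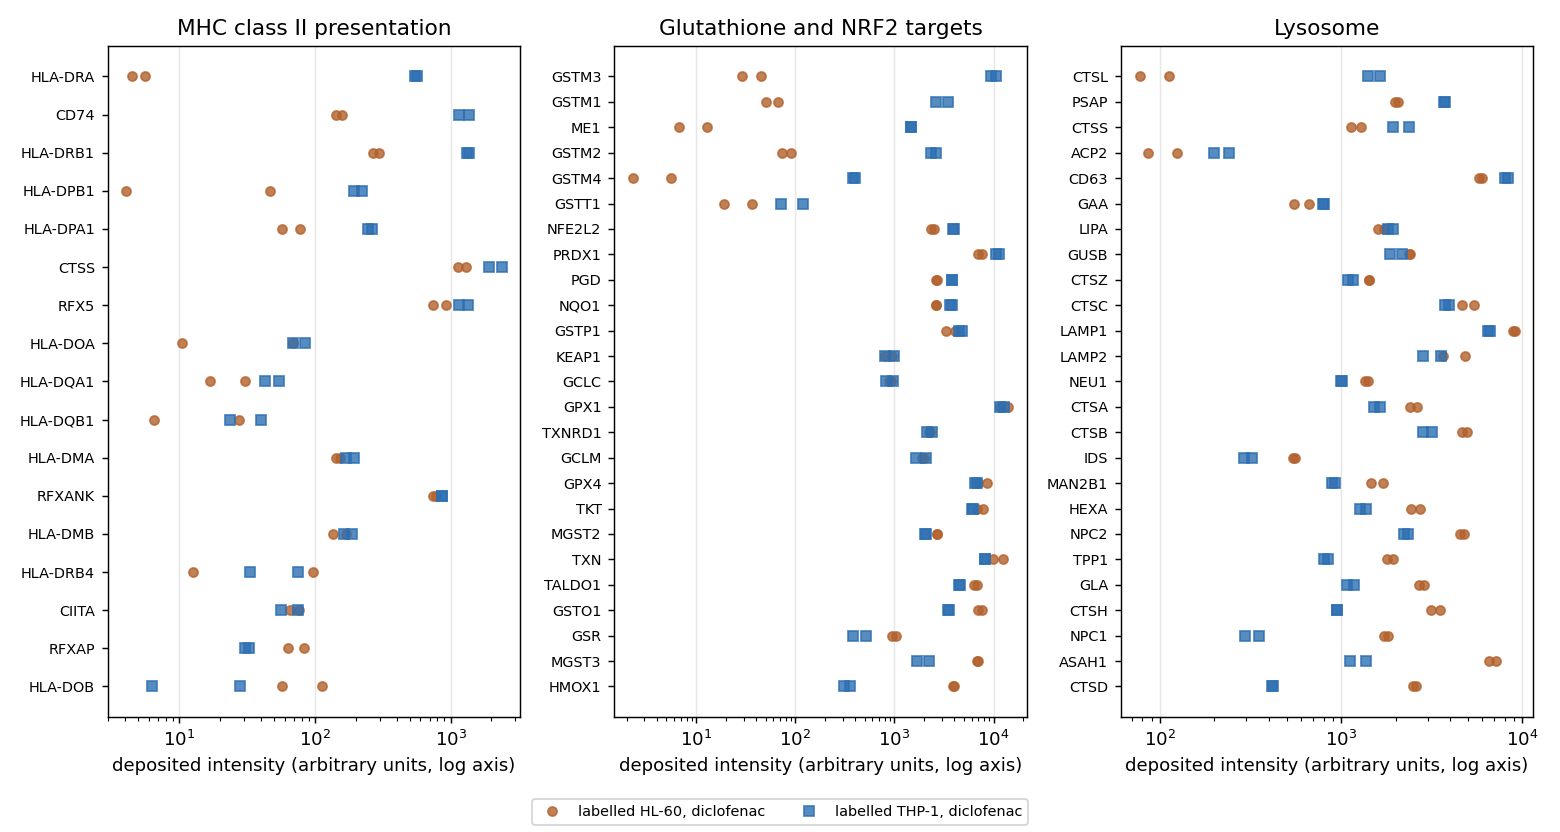
Deposited intensity on a log axis (arbitrary units) for every measured member of 3 gene lists, ordered by the difference between lines; circles are the 2 HL-60 and squares the 2 THP-1 diclofenac arrays. Squares lie right of circles for HLA-DRA to HLA-DPA1 and for GSTM1 to GSTM4, and left of them for most lysosomal genes.

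Prostaglandin genes, which include the targets of the drug, were called in 7 of 27 cases, 2 higher and 5 lower in THP-1. That is 25.9%, against 28.6% of all genes and 37.7% of genes above background in a line. Of the 27, 19 were above background on both arrays of at least 1 line. PTGS1, the constitutive cyclooxygenase, read 648.4 and 663.9 in HL-60 and 202.4 and 162.9 in THP-1 (-1.62 ± 0.14, adjusted p = 0.000833). PTGS2, the inducible form, was near background on all 4 arrays at 50.2 and 34.3 against 63.2 and 68.5 and was not called (0.26 ± 0.23, adjusted p = 0.493). TBXAS1, thromboxane synthase, was 2.28-fold lower in THP-1. ALOX5, which starts leukotriene synthesis, was at least 2.64-fold higher, although its other probe sets were not called and its call was lost without HL-60 replicate 2 or THP-1 replicate 1. TBXAS1 lost its call when 3 of the 4 arrays were left out in turn. The count of lower members was 3 without HL-60 replicate 2 and 2 without either THP-1 array. The count of higher members was 1 without HL-60 replicate 1 or THP-1 replicate 2 and 0 without HL-60 replicate 2 or THP-1 replicate 1, where 10 and 8 members, in either direction, had an unadjusted p below 0.05 in limma. Of 15 measured genes of drug efflux and diclofenac metabolism, 6 were above background on both arrays of at least 1 line, so most were too dim to compare. In this list 0 were higher and 1 lower, ABCB1, a drug pump that read 53.4 and 49.9 against 13.8 and 12.9, at least 1.11-fold lower. The call of ABCB1 was lost when any array was left out.

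The AP-1 family had 4 higher, 2 lower and 7 uncalled members of 13. ATF3, induced by many stresses, read 104.0 and 72.5 in HL-60 and 417.3 and 335.3 in THP-1 (1.61 ± 0.21, adjusted p = 0.00391). FOS read 162.2 and 191.9 against 328.5 and 294.2 (0.67 ± 0.18, adjusted p = 0.0436), and this call was lost when any array was left out. JUND was higher by 0.54, with its other probe sets not called. JUN, the usual partner of FOS, read 457.8 and 451.8 against 404.7 and 246.7 and was not called on this probe set (-0.43 ± 0.21, adjusted p = 0.214). Of its 3 other probe sets 2 were lower, by 0.39 and 0.64 (adjusted p = 0.0412 and 0.0399). BATF, an AP-1 protein of lymphoid and myeloid cells, was lower in THP-1 at 144.2 and 300 against 1498.5 and 1657.2 (-2.66 ± 0.30, adjusted p = 0.00215). Without either THP-1 array the counts were 2 higher and 1 lower, and without either HL-60 array 3 and 1.

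Transcription factors of the myeloid lineage were called in 16 of 27 cases, 10 higher and 6 lower in THP-1 (median 0.27). CEBPD read 3.8 and 46.3 in HL-60 and 1939.4 and 1905.7 in THP-1, higher by 4.74 ± 0.29. Its relative CEBPB was lower in THP-1, at 2163.3 and 2136.2 against 4691.1 and 4546.8 (-1.09 ± 0.07, adjusted p = 0.000322), and CEBPA, which drives granulocyte fate, was 1.88-fold higher. IRF8 and KLF4, which act in monocytes, were 1.95-fold and 3.77-fold higher. RUNX3, ID2 and IRF5 were lower by 1.16 to 1.59 log2 units. SPI1, CEBPE and GFI1 were not called.

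Of the 11 measured genes of the HOXA and MEIS1 program, 3 were higher and 1 lower. MEF2C read 83.4 and 102.4 in HL-60 and 1244.5 and 1360.0 in THP-1 (3.22 ± 0.14, adjusted p = 0.000114), but a dimmer probe set of it was not called. FLT3, a receptor kinase of progenitors, was 7.28-fold and PBX3, a partner of HOX proteins, 4.09-fold higher. MEIS1 was lower in THP-1, at 237.5 and 252.1 against 684.3 and 657.4 (-1.30 ± 0.12, adjusted p = 0.00106). KMT2A and MLLT3 were not called. Of the HOXA genes in the list, HOXA2 alone had a probe set for which the annotation named 1 gene. It was at background on all 4 arrays. The other HOXA genes were not read for that reason, so their expression was not tested. MYC read 2713.6 and 2709.7 in HL-60 and 2509.3 and 2994.8 in THP-1, a difference of 0.00 ± 0.09 (adjusted p = 0.997).

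CDKN2A, which codes for the cell cycle inhibitor p16, read 314.6 and 308.8 in HL-60 and 42.5 and 17.8 in THP-1 (-2.21 ± 0.25, adjusted p = 0.00239). Its neighbour MTAP, an enzyme of methionine salvage, read 282.8 and 281.6 against 3.6 and 43.9, at least 3.51-fold lower, and of its 4 other probe sets 2 were lower and 2 not called. CDKN2B, the next gene, was at background on all 4 arrays. CCND2, a cyclin held in check by such inhibitors, was 8.84-fold lower in THP-1. CDKN1A, TP53I3 and SESN1, targets of p53, were higher by 1.06 to 1.52, while FAS, another target, was lower by 1.27 (adjusted p = 0.0265) and MDM2, BAX and ZMAT3 were not called. The list around p53 and this locus had 3 higher and 4 lower genes of 15, with 1 higher without either THP-1 array. Of 20 genes around MYC, 3 were higher and 3 lower.

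Genes of cell division were called in both directions. Of 28 mitosis genes, 12 were lower and 5 higher in THP-1 (median -0.22), 4 of the 12 on chromosomes 15 or X, and of 33 genes of DNA replication 9 were lower and 7 higher (median -0.03). MKI67, the proliferation antigen, read 1571.5 and 1471.1 in HL-60 and 524.7 and 472.6 in THP-1, and of its 3 other probe sets 1 was lower, by 1.03, and 2 were not called. TPX2 was 2.73-fold and RRM2, a subunit of ribonucleotide reductase, 2.77-fold lower. UBE2C, the ubiquitin enzyme of mitotic exit, went the other way, at 546.2 and 562.9 against 3638.9 and 3866.0 (2.66 ± 0.07, adjusted p = 3.53e-05), and BIRC5, survivin, was 2.14-fold higher. The count of higher mitosis genes was 3 without HL-60 replicate 1 or THP-1 replicate 1. The replication counts were 3 higher without THP-1 replicate 2 and 5 lower without THP-1 replicate 1.

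Glycolysis genes were lower in 10 of 23 cases and higher in 3 (median -0.29), with 1 higher without either THP-1 array. The lower share was 43.5% against 18.8% of genes above background, and 2 of the 10, PGK1 and PKM, lie on chromosomes X and 15. PDK1, which shuts the entry of pyruvate to mitochondria, read 660.5 and 581.5 in HL-60 and 62.5 and 58.4 in THP-1 (-2.64 ± 0.17, adjusted p = 0.000345). PKM, pyruvate kinase, was 3.38-fold and HK1, hexokinase, 3.13-fold lower. PFKM, the muscle type of phosphofructokinase, was higher in THP-1 at 699.4 and 834.5 against 76.8 and 79.3. Respiratory chain genes split 9 higher to 7 lower of 34, led by NDUFB7, a complex I subunit that read 5493.2 and 4894.4 in HL-60 and 695.4 and 681.0 in THP-1 (-2.84 ± 0.09, adjusted p = 6.18e-05), with 4 lower when any array was left out. Of 29 cytosolic ribosomal protein genes, 1 was higher and 3 lower, and 25 were not called.

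The heme list had 1 higher and 5 lower genes of 20. CPOX and BLVRB, enzymes that make heme and clear its breakdown product, were 4.21-fold and 7.32-fold lower in THP-1, beside HMOX1, whereas UROS was 2.33-fold higher. Lipid genes had 4 higher and 7 lower members of 25. LPL, lipoprotein lipase, read 51.4 and 5.8 in HL-60 and 961.1 and 847.8 in THP-1, and G0S2, which restrains fat breakdown, was at least 6.23-fold higher. FABP4, a fatty acid carrier, was 6.85-fold and CPT1A 2.53-fold lower. PLIN2, the coat of lipid droplets, read 7040.7 and 7634.8 against 7395.7 and 8348.2 and was not called on this probe set. Its other probe set, at 81.1 and 103.3 against 17.4 and 23.5, was called lower in THP-1.

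Genes of the amino acid response under ATF4 were called in 18 of 33 cases, 10 higher and 8 lower. SARS1, seryl-tRNA synthetase, was 4.53-fold and SLC38A2, an amino acid carrier, 3.61-fold higher in THP-1. CTH, which makes cysteine, read 965.8 and 942.5 in HL-60 and 112.3 and 52.5 in THP-1 (7.98-fold, adjusted p = 0.00056), and the carrier SLC1A4 was 4.41-fold lower. Without HL-60 replicate 1 or THP-1 replicate 1 the count of lower members was 5.

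Integrins and adhesion receptors were called in 14 of 25 cases, 7 in each direction. ITGA6, the laminin receptor chain, read 3103.3 and 3034.9 in HL-60 and 62.0 and 50.7 in THP-1 (-4.91 ± 0.10, adjusted p = 2.11e-05). CD44, the hyaluronan receptor, was 7.62-fold and the tetraspanin CD37 4.34-fold lower, and 6 other probe sets of CD44 were lower too. CD9, a tetraspanin, was 4.20-fold higher and ITGB7 at least 2.30-fold. Annexins, galectins and S100 proteins had 6 higher and 10 lower members of 22. S100P, S100B and ANXA6 were lower, and S100A8, S100A9 and S100A12 higher.

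Cytokine genes under NF-kB had 5 higher and 6 lower members of 28. IL18 read 744.8 and 502.7 in HL-60 and 142.3 and 87.8 in THP-1, and CCL23 was 2.31-fold lower. NFKBIA, the inhibitor that NF-kB itself induces, was 3.55-fold higher in THP-1. The count of higher members was 1 without HL-60 replicate 2 or THP-1 replicate 2, 2 without THP-1 replicate 1 and 3 without HL-60 replicate 1. Interferon-stimulated genes had 5 in each direction of 30 (3 higher without either THP-1 array), with IFITM1 4.97-fold higher and OAS3 3.19-fold lower. Of 14 BCL2 family genes, MCL1 was 3.18-fold and PMAIP1 1.64-fold higher, BCL2A1 lower, and 11 were not called. PRAME and MAGEB2, antigens of tumours and germ cells, were higher in THP-1, with 3 higher and 0 lower in their list of 16, PRAME at 404.1 and 371.9 against 10.6 and 17.1.

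**Figure D3:**
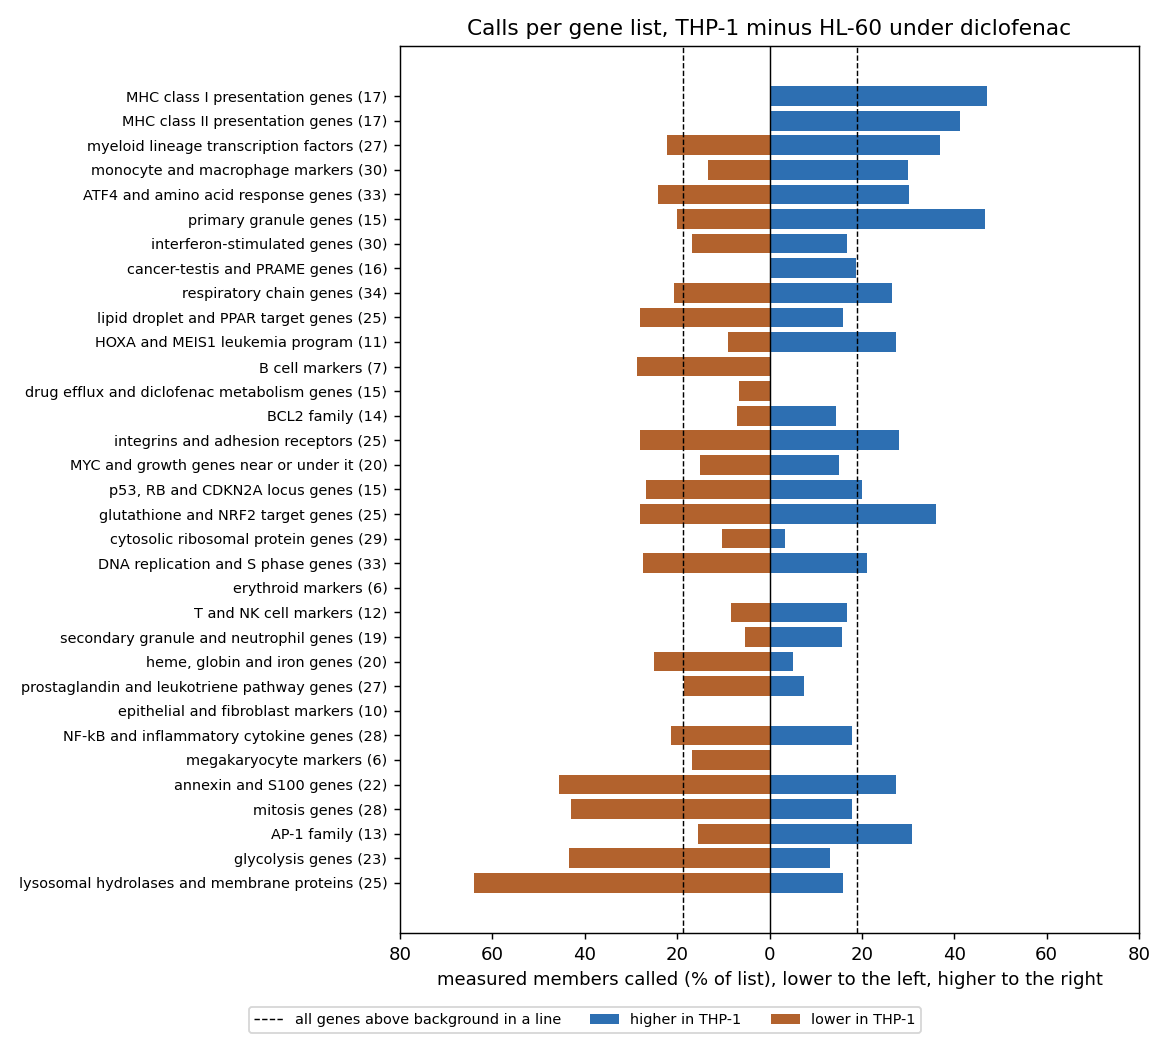
Share of each list's measured members called higher (right) or lower (left) in THP-1, in percent, with the number measured in brackets and lists ordered by their median difference. Dashed lines mark 18.9% higher and 18.8% lower over genes above background in a line, whereas the bars count all measured members, and the lysosomal list reaches 64% lower.

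Position along chromosomes was read for the 9279 genes above background on at least 2 of the 4 arrays, of which 18.1% were higher and 18.0% lower in THP-1. On chromosome 15, 134 of 294 genes (45.6%) were lower and 15 (5.10%) higher, with a median difference of -0.44. On chromosome X, 166 of 335 (49.6%) were lower and 17 higher, with a median of -0.65. Chromosome 6 had 164 of 500 genes (32.8%) higher and 53 lower, with a median of 0.23, and chromosome 12 had 140 of 525 (26.7%) higher. On chromosomes 2, 8 and 18, 27.4% to 28.7% of genes were lower. On the DMSO arrays, which share no array with this comparison, the medians of chromosomes 15, X and 6 were -0.43, -0.56 and 0.16. The copy number of these chromosomes was not measured here.

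**Figure D4:**
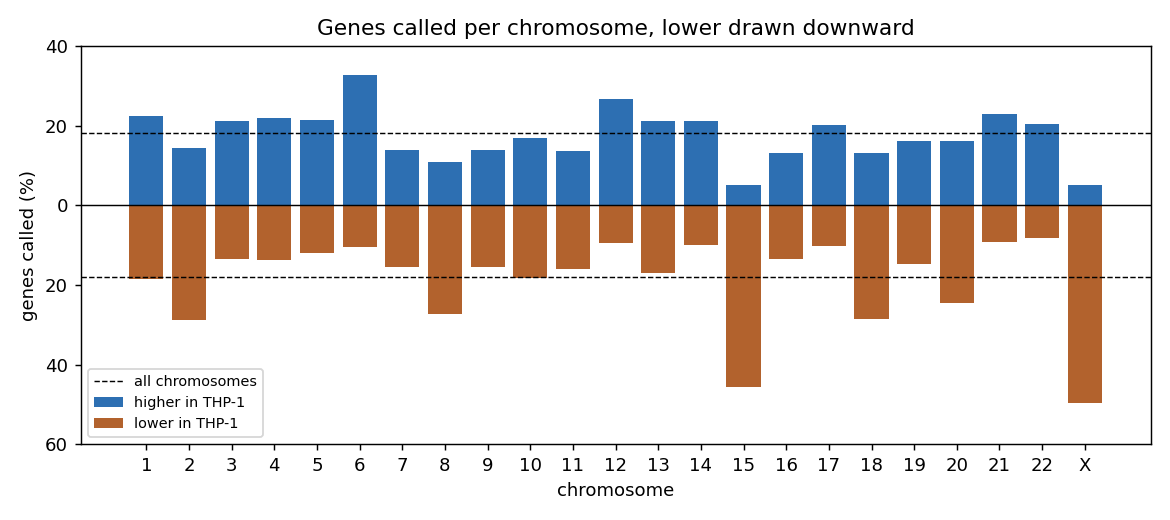
Percent of genes called per chromosome, higher in THP-1 drawn upward and lower downward, over 9279 genes above background on at least 2 of the 4 arrays. Dashed lines mark all chromosomes together (18.1% and 18.0%), and the downward bars are longest for chromosome X (49.6%) and chromosome 15 (45.6%).

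Neighbouring genes were then read in windows of 20, whose medians had a lower and an upper percentile (1 and 99) of -0.90 and 0.82. The highest window lay on chromosome 1 from VAV3 to GSTM3 and held the mu-class transferases and SARS1, with 17 genes higher, 0 lower and a median of 1.88. Its median on the DMSO arrays was 1.49. Other high windows ran from MACF1 to PPCS on chromosome 1 (median 1.37) and from DST to HMGN3 on chromosome 6 (1.17). The lowest window ran from EID1 to ARPP19 on chromosome 15, with 16 genes lower, 0 higher and a median of -1.59, against -0.98 with DMSO. The next windows lay on chromosome X, from ARHGAP4 to CMC4 (-1.25), from CUL4B to STK26 (-1.21), from CTPS2 to PDK3 (-1.04) and from XK to JADE3 (-1.03). TKTL1, at least 73.9-fold higher in THP-1, lies within the window from ARHGAP4 to CMC4, in which 14 of 20 genes were lower.

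The same lines were compared on the 4 DMSO arrays to see whether the differences were there without the drug. Of the 3423 called genes, 3167 (92.5%) had the same sign with DMSO, against 58.5% of the genes not called. With DMSO, 8.89% of all genes were called, and 997 of the 3423 (29.1%) were called again, 1 of the 3423 in the opposite direction. THP-1 DMSO replicate 2 stands apart, with a background of 238.6 against 33.2 to 60.2 on the other 7 arrays. Without it 94.5% had the same sign and 1394 were called again. Without THP-1 DMSO replicate 1, which leaves the outlying array alone, 86.1% had the same sign, 1968 were called again and 79 were called opposite. GSTM3 differed by 6.84 with diclofenac and 5.99 with DMSO, S100A9 by 4.12 and 2.94, CD74 by 2.68 and 2.39, and CTSD by -2.47 and -2.81.

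**Figure D5:**
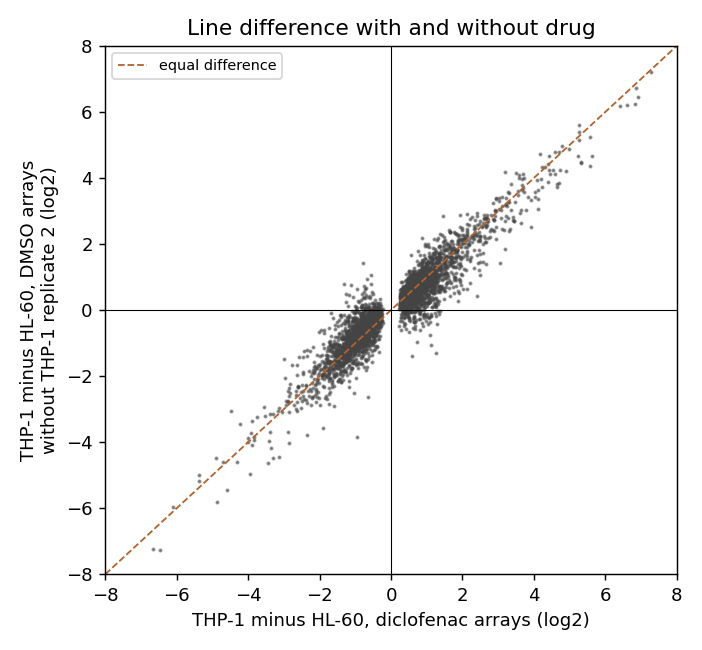
THP-1 minus HL-60 in log2 units for the 3423 called genes, on the diclofenac arrays (horizontal) and on the DMSO arrays without THP-1 replicate 2 (vertical). The dashed line marks equal differences, and 94.5% of the points have the same sign on both axes.

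Whether the line difference itself differed between diclofenac and DMSO was tested over all 8 arrays. In limma 1 probe set passed, that of MTDH, and 1542 (6.94%) had an unadjusted p below 0.05. MTDH read 2190.8 and 2128.0 in HL-60 and 1587.9 and 1787.0 in THP-1 with diclofenac, against 3759.2 and 4453.8 and 854.6 and 892.6 with DMSO. In separate fits its line difference was -0.36 with the drug and -2.10 without, and the joint fit gave 1.79 (adjusted p = 0.0391). The brightest probe set of MTDH is another one, at -0.10 with diclofenac and not called. With any diclofenac or HL-60 DMSO array left out, 0 probe sets passed and 889 to 1286 had an unadjusted p below 0.05. Without THP-1 DMSO replicate 1, 4042 passed. Without THP-1 DMSO replicate 2, 4 probe sets passed, those of MTDH, ANXA1, DENND4B and S100P. ANXA1, a mediator of glucocorticoid effects, read 2059.3 and 2079.8 in HL-60 and 2143.4 and 2030.3 in THP-1 with diclofenac, but 1772.2 and 1868.8 against 665.6 and 720.6 with DMSO. FOS and RELB were higher in THP-1 with diclofenac and below 0 with DMSO, at -1.07 and -0.87, or -0.36 and -0.11 without THP-1 DMSO replicate 2. That difference did not pass the test (adjusted p = 0.673 and 0.674). A line difference that missed this test is not shown to be equal between treatments.

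Of the 1442 called genes with more than 1 probe set, 23 had another probe set called in the opposite direction, ERAP1 and CTSB among them. APP, BIRC5, CCND2, CPT1A, GAL, MCL1, NDUFB7 and NPC1 each had at least 1 other probe set above background on 3 or 4 arrays that was not called, and for CPT1A this held for all 3 others. Of the other genes named above, RELB lost its call without 3 of the 4 arrays in turn, and CDKN1A, SESN1 and S100A12 without 2 of them. GSR and IRF5 lost theirs without HL-60 replicate 2.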

How the data were processed

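Intensities of 22277 probe sets on 8 arrays were used as the submitters deposited them, linear and scaled to the same mean. The labels' protocols give RNeasy extraction and biotinylated cRNA; the software behind the intensities is not given in the sources used here. Groups came from the sample titles.

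After log2(intensity + 50), the 4 diclofenac arrays were quantile normalised and fitted with limma 3.58.1 in R 4.3.3 (2 residual and 3.66 prior degrees of freedom, intensity trend). Benjamini-Hochberg adjustment ran over 22215 probe sets. The annotation named 1 gene for 19064 probe sets, several for 1043 and did not list 2108. A gene is its brightest probe set, and cross-hybridising types were used only where no other existed (460 genes). Gene order came from a RefSeq table, of which no coordinates are given.

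Genes that could be named were up to 12 per direction by difference, 8 per direction present in 1 line, 3 per direction of each of 33 lists (750 genes, 663 measured), all members of short lists and single genes. Further members of the class II, class I, glutathione, lysosome, p53 and glycolysis lists were named after their values were seen. The comparison, lists and rules were chosen with earlier results of these data known. Data of this design were simulated in 20 runs of 22215 probe sets, of which 200 were changed per run. There 14% of 1-unit and 44.5% of 2-unit changes were found, with 0.679% of calls false. In the real comparison 23.8% of probe sets were called, and the adjustment depends on the share that differs. The simulated rates therefore need not hold for it. Alternatives covered scaling, offset, filter, trend, the arrays fitted, a replicate block and each array left out. The check of the pairing found a correlation of -0.019 between same-numbered arrays of the 2 lines, so no block was used. Figures were drawn with matplotlib 3.10.9.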

Additional observations from a re-analysis of the deposited data

Results flagged for a closer look

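MTDH was picked out because the difference between the lines itself differed between diclofenac and DMSO. Its THP-1 minus HL-60 difference was 1.79 log2 units higher with diclofenac than with DMSO (limma over 8 arrays, adjusted p = 0.0391), and 1.87 units higher without THP-1 DMSO replicate 2. Whether it passed depended on the arrays fitted, as given above, and this is not the brightest probe set of MTDH. The cause was not tested.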

How the results depend on the processing

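Under 8 other settings of scaling, offset, filter, intensity trend, array set and block, 1297 to 1940 genes were higher and 1373 to 1935 lower, and 74.0% to 98.4% of the called genes were called again. With all 8 arrays in 1 fit, which adds the outlying THP-1 DMSO array to the shared spread, 1502 probe sets were higher and 1390 lower (1004 and 915 genes, with 55.9% of the called genes called again). With a minimum difference of 1 log2 unit, 1086 and 1125 probe sets passed (719 and 721 genes). Leaving out each array in turn gave 1544 to 1865 probe sets higher and 1602 to 1888 lower, and 1015 to 1236 and 1078 to 1209 genes, with 59.6% to 67.6% called again. A replicate block, although the numbers do not pair the arrays, gave 2515 and 2519 probe sets. No called gene turned to a call of the opposite sign under any of these settings. Centring on the median split the calls 2400 to 2822 and moved the median of all probe sets from -0.01 to -0.04.

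Among the 232 genes the naming rule covers, 210 pairs of gene and setting lost a call, 16 gained one and 2 changed sign, both when probe sets of a gene were averaged, PLIN2 to -0.44 and RPL18 to 0.032. The share of called genes with the same sign under DMSO ranged from 86.1% to 94.5% when each DMSO array was left out. The count of probe sets whose line difference differed between treatments ranged from 0 to 4042, with 4042 without THP-1 DMSO replicate 1 and 4 without replicate 2. In the fits with 0, limma gave 889 to 1286 at an unadjusted p below 0.05. In simulations with 200 changed probe sets per run most differences of 1 log2 unit were missed. That rate need not hold for the real comparison, but an uncalled gene may still differ.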
